A study of Mus musculus with 2 samples.

Results

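The genes described here are 10 of the circadian clock: the activators Clock, Arntl and Npas2, the REV-ERB genes Nr1d1 and Nr1d2, the nuclear receptor gene Rora, and the bZIP genes Dbp, Tef, Hlf and Nfil3. They were chosen by name for their place in the clock, with earlier results of these data known. All 10 were found among the 21938 protein-coding genes of the annotation. Chromatin accessibility had been mapped by DNase-seq, which sequences the DNA ends left where DNase I cuts exposed chromatin. The tissue was left cerebral cortex from male B6CASTF1/J mice aged 8 to 10 months, which are offspring of a cross of the C57BL laboratory strain with castaneus mice. The labels name no treatment, no engineered allele and no second condition, so there was 1 group of 2 libraries, biological replicates 1 and 2. Both libraries carry 1 donor identifier but separate biosample identifiers, so the spread between them may leave out differences between animals. The hour of tissue collection is not given in the sources used here, and no value below can be placed in the daily cycle.

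In the mammalian clock, CLOCK or its relative NPAS2 pairs with BMAL1, the product of Arntl, and the pair activates genes through E-boxes. Its targets include the Per and Cry repressor genes, both REV-ERB genes and the PAR bZIP genes Dbp, Tef and Hlf. REV-ERB proteins repress and ROR proteins activate through ROR elements, and Arntl is the best known gene under this control. DBP, TEF and HLF activate through D-boxes, and NFIL3 (E4BP4) represses through the same sites.

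Each library had a stricter list of narrow peaks, with 40705 in replicate 1 and 39508 in replicate 2, and a broader list, with 71210 and 72217. Footprints numbered 166128 and 174394. A footprint is a short stretch protected from cutting inside open DNA. Peak strength below is the deposited signal value of a peak, whose normalization is not given. Of the genes that mark cortex, 5 of 8 (Camk2a, Neurod6 and Tbr1 among them) had a narrow peak at a promoter in both libraries, as did 5 of 5 pan-neuronal genes and 54.9% of all protein-coding genes. The count was 2 of 5 for astrocytes (Gfap and Sox9), 1 of 5 for oligodendrocytes (Olig1), 1 of 4 for endothelium (Slc2a1), and 0 of 5 each for inhibitory neurons and microglia. It was 0 of 4 for other brain regions and 0 of 6 for other organs. All of the pan-neuronal promoters were thus open, the share for cortex was near that of all genes, and the inhibitory neuron promoters had no narrow peak in both libraries. In the broader list the count was 7 of 8 for cortex and 3 of 5 each for inhibitory neurons, astrocytes and oligodendrocytes. It was 1 of 4 each for endothelium and other brain regions, and stayed at 0 for microglia and other organs. The share of all protein-coding genes in the broader list is not given here, so these counts cannot be set against it. In bulk tissue, fewer cells with a site open and less cutting per cell cannot be told apart.

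All 10 genes had a narrow peak within 1000 bp of an annotated start in both libraries, where 54.9% of protein-coding genes had one. The peaks differed widely in strength from gene to gene. At Nr1d1 the strongest promoter peak had a strength of 7.83 in replicate 1 and 6.42 in replicate 2. Tef had 7.09 and 5.67, Dbp 6.28 and 4.53, and Nr1d2 5.61 and 4.82. These genes, all known E-box targets of the CLOCK pair, took the highest 4 places. Arntl followed with 3.75 and 2.51, Clock with 2.81 and 2.52, and Hlf, another PAR bZIP gene, with 2.38 and 2.62. Nfil3 had 1.80 and 2.04, Rora 1.66 and 1.27, and Npas2 1.10 and 1.24. Hlf, also a known target, thus lay among the other 6 genes. The highest 4 were set apart by these same values, so the gap below them is no separate result.

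The means over the libraries were 7.12 ± 0.999 at Nr1d1, 6.38 ± 1.01 at Tef, 5.41 ± 1.24 at Dbp and 5.22 ± 0.557 at Nr1d2 (SD, n = 2). Replicate 1 was the higher at all 4, so these SDs hold a shift that the genes share. Within each library Nr1d1 lay above Tef and Tef above Dbp and Nr1d2, although the steps were smaller than the SDs, while Dbp and Nr1d2 changed places. Arntl (3.13 ± 0.880) lay above Clock (2.67 ± 0.210) and Hlf (2.50 ± 0.171) by less than its own SD but by more than theirs. Clock and Hlf differed by less than either of their SDs. The order of these genes was not the same in both libraries. Below them came Nfil3 (1.92 ± 0.167), Rora (1.46 ± 0.276) and Npas2 (1.17 ± 0.0999), in that order in both libraries, each set apart from the gene above by more than either SD.

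Among all genes with a promoter peak, Nr1d1 held rank 83 of 12485 by strength in replicate 1 and rank 166 of 12517 in replicate 2. Tef held ranks 173 and 330, Dbp ranks 404 and 957, and Nr1d2 ranks 778 and 701. At the other end Npas2 held ranks 10939 and 10292. The median strength over the 10 genes was 3.28 and 2.57, against 2.66 and 2.32 over all genes with a promoter peak. The middle of the set thus lay near the middle of all genes, while single members lay near both ends.

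**Figure D1:**
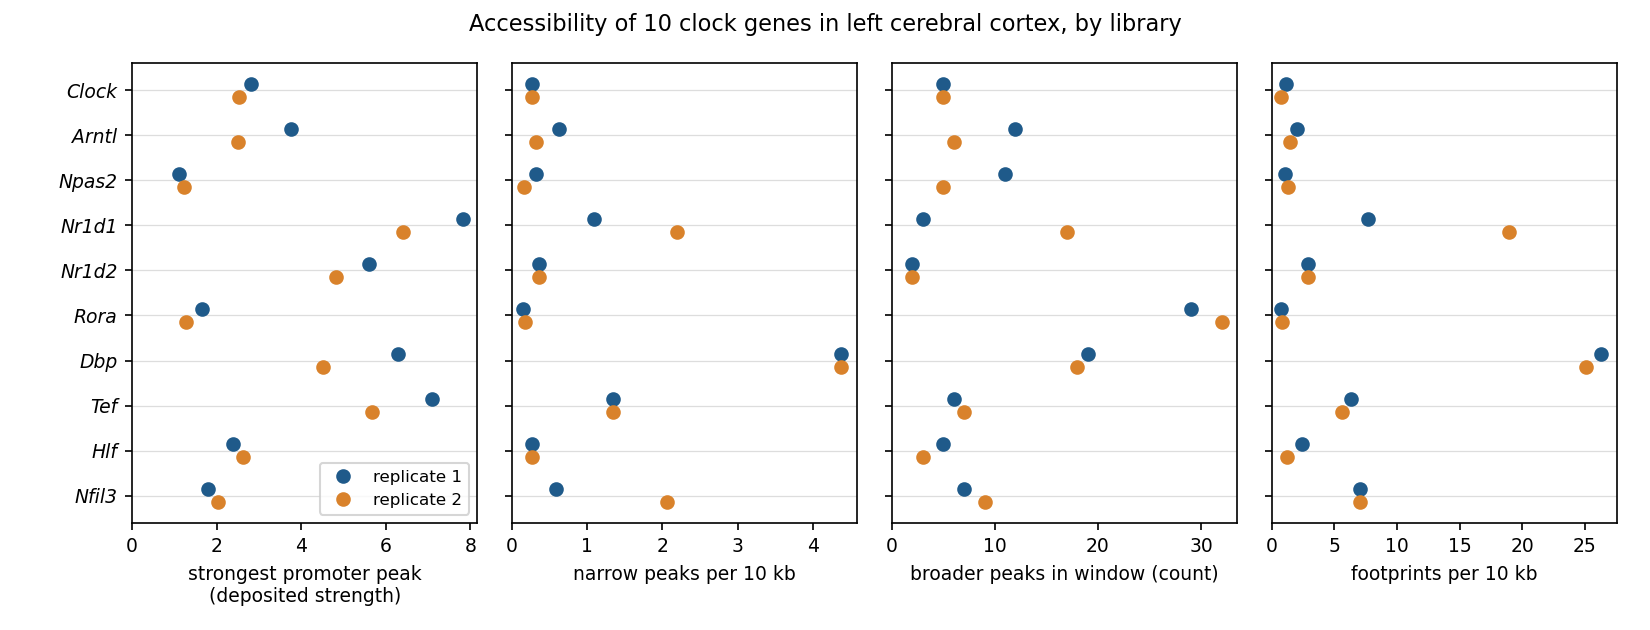
Strongest promoter strength, narrow peaks per 10 kb, broader peaks in the window and footprints per 10 kb of the 10 genes, 1 point per library. In promoter strength Nr1d1, Tef, Dbp and Nr1d2 lie at 4.53 or more and the other 6 genes at 3.75 or less.

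Over each gene with 10 kb on either side, the median density of narrow peaks was 0.477 and 0.339 per 10 kb for the 10 genes, or 0.408 ± 0.0971, against 0.304 and 0.295 for all protein-coding genes (0.300 ± 0.00595; SD, n = 2). The median footprint density was 2.66 and 2.20 per 10 kb, or 2.43 ± 0.325, against 1.26 and 1.33 for all genes (1.29 ± 0.0464). The genes had a median length of 44.7 kb, against 17.4 kb for all protein-coding genes, so the windows differ in how much of them is flank. Dbp was the densest of the 10 with 4.38 peaks per 10 kb in both libraries, and Rora the sparsest in replicate 1 with 0.146.

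Of 28 clusters of annotated starts, 16 had a narrow peak within 1000 bp in both libraries, 1 had one in replicate 2 alone, and 11 had none. Dbp had peaks at all 3 of its clusters, and Tef and Rora at 3 of 4 each. Arntl and Hlf had 4 clusters each, with a peak in both libraries at the outermost one alone. The share over the start clusters of all protein-coding genes was not computed, so these counts are not read as a trait of the members.

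Clock (chr5:76209868-76304792, minus strand, mm10 here and below) had 3 narrow peaks and 5 broader ones in each library, with 13 and 9 footprints. All of its narrow peaks lay within 1000 bp of a start. The peak at the start (chr5:76304701-76305000) had a strength of 2.81 and 2.52, and held 9 and 7 of those footprints. A weaker site in intron 1 (chr5:76303881-76304440), of strength 1.03 and 0.944, held a ROR element 768 bp after the first start and an E′-box (CACGTT, a weaker relative of the E-box) at 795 bp. Neither lay in a footprint in either library.

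Arntl (chr7:113207465-113314126, plus strand) had a peak on each side of its start and a gap between them. The upstream peak (chr7:113206961-113207460) had a strength of 3.75 and 2.51, and the peak in intron 1 (chr7:113207661-113208060) 1.14 and 1.23. The gap held a ROR element at 77 bp after the first start and a variant of it at 41 bp. This stretch (chr7:113207481-113207557, plus strand) is shown because the paired ROR elements of Arntl are its known sites of REV-ERB and ROR control; capitals mark the variant, then the element.
Arntl: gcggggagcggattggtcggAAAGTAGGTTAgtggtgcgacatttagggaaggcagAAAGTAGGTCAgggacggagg

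The ROR element began 76 bp after the end of the upstream peak in replicate 1 and 116 bp in replicate 2, and ended 113 bp before the downstream peak in both. Neither it nor its variant lay in a narrow or broader peak in either library. All 47 bp from the start of the variant to the end of the element were nonetheless listed in the FDR table (false discovery rates of cutting), with values of 6.45e-11 to 4.7e-08 in replicate 1 and 3.09e-05 to 0.000122 in replicate 2. A footprint overlapped the variant in replicate 2 alone, and none overlapped the element. The pair thus lay in DNA listed for its cutting but outside the intervals of the peak lists.

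The rest of Arntl differed between the libraries. It had 8 narrow peaks in replicate 1 and 4 in replicate 2, 12 and 6 broader peaks, and 26 and 19 footprints. The 4 sites found in replicate 1 alone all lay in intron 2, with strengths of 1.08, 1.10, 1.01 and 1.35. Shared sites lay in intron 2 (1.22 and 1.29) and intron 18 (1.23 and 1.17).

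Npas2 (chr1:39193731-39363236, plus strand), which encodes the forebrain relative of CLOCK, had 6 and 3 narrow peaks, 11 and 5 broader peaks, and 20 and 24 footprints. Its strongest promoter peak was the weakest of the 10 genes in both libraries. The site at 417 bp (chr1:39194015-39194280) had 1.10 and 1.21, and the site at −640 bp (chr1:39192952-39193230) had 1.09 and 1.24. ROR elements at −891 and −726 bp lay under narrow peaks of replicate 1 and outside those of replicate 2. The strongest peak in its window, of 4.13 and 3.41 (chr1:39367621-39367980), lay at the start of the neighbouring ribosomal protein gene Rpl31, outside Npas2.

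**Figure D2:**
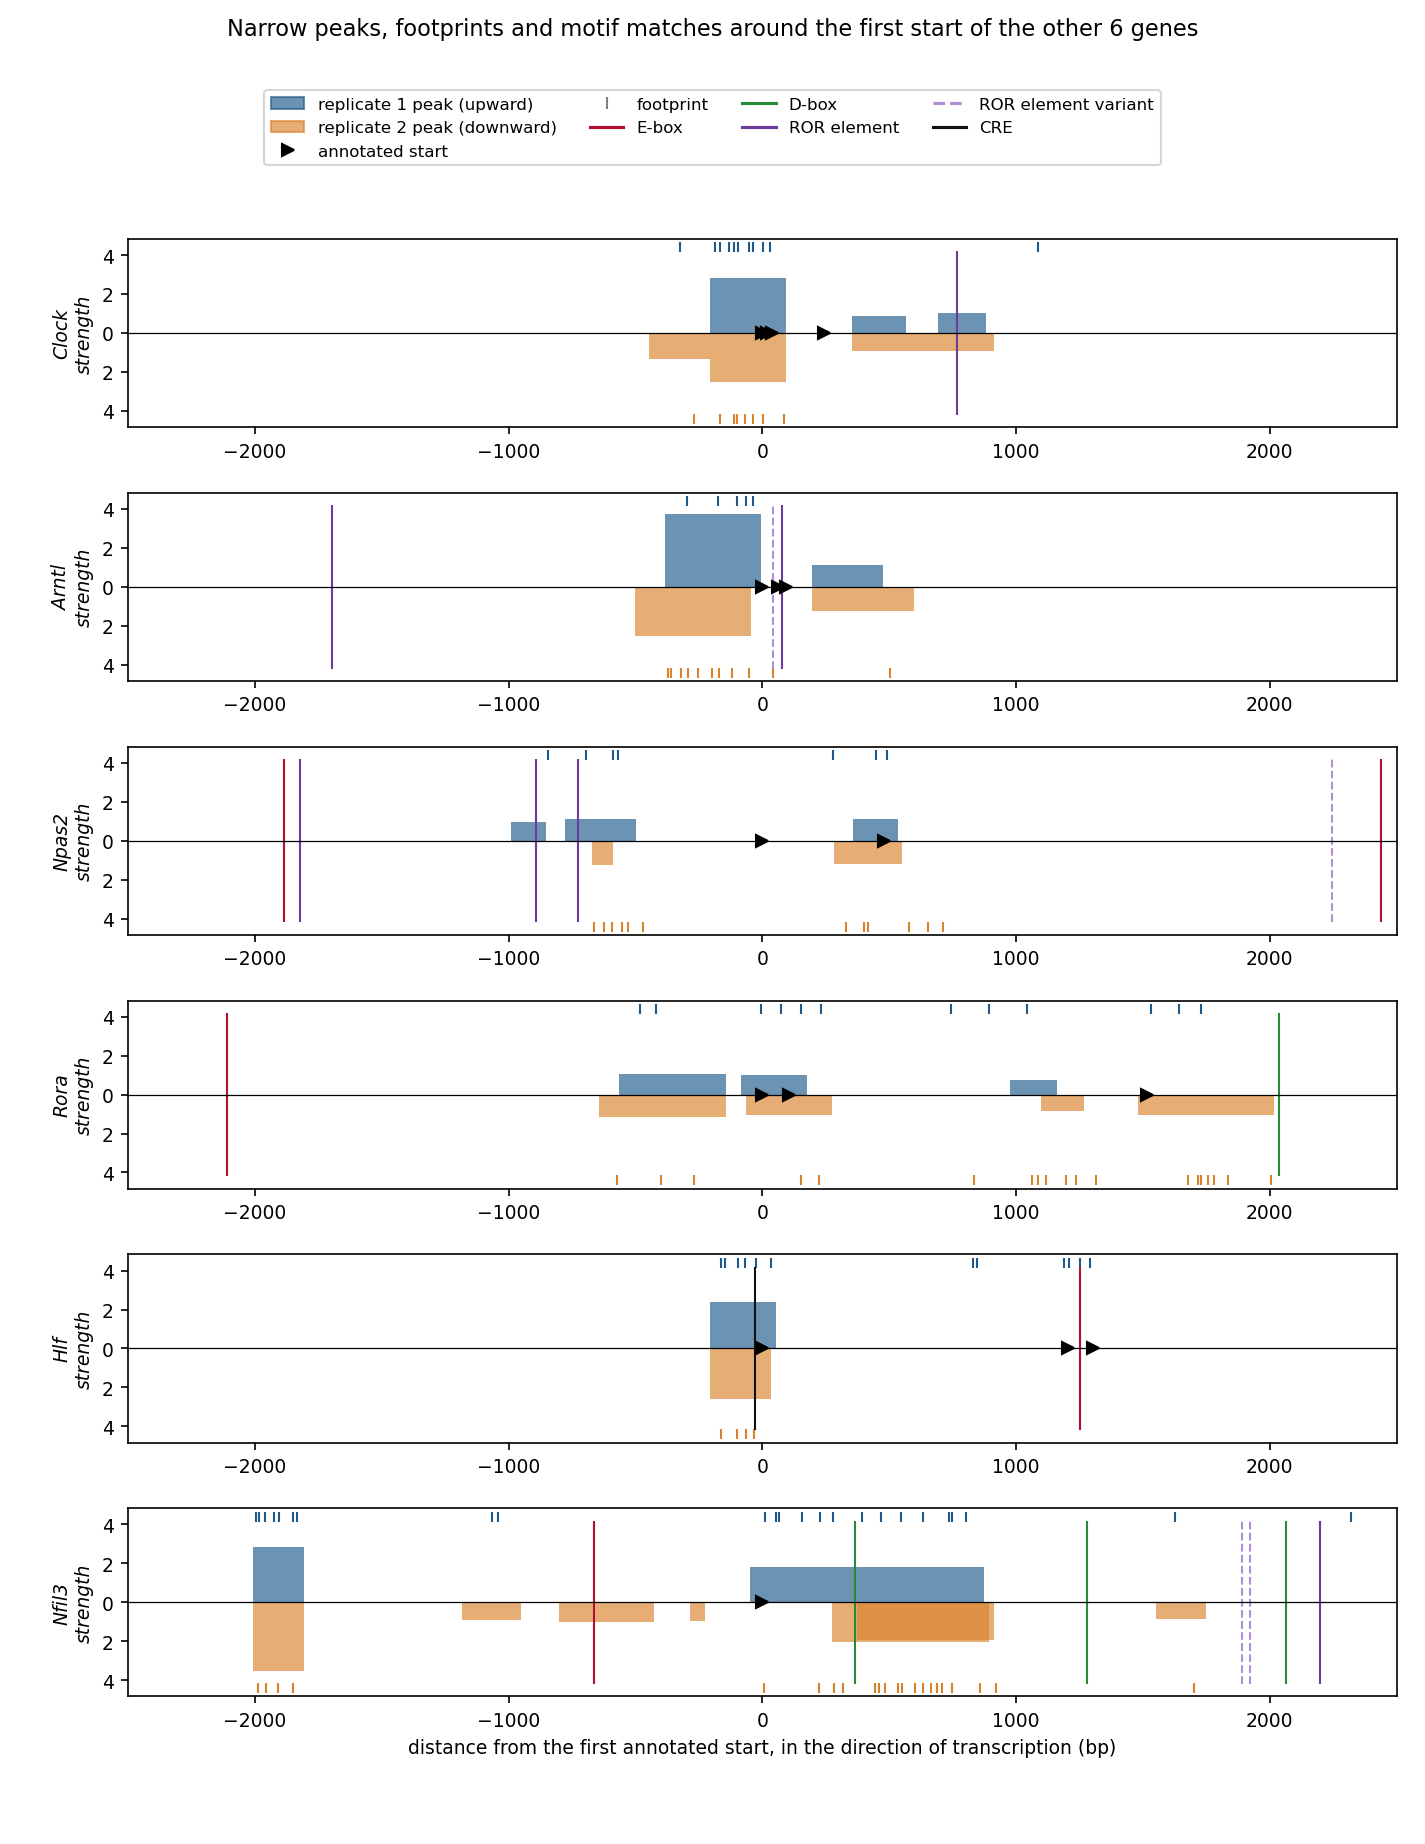
Narrow peaks, footprints and motif matches around the starts of Clock, Arntl, Npas2, Rora, Hlf and Nfil3, by distance from the first start in bp, with replicate 1 drawn upward and replicate 2 downward. At Arntl the ROR element and its variant lie between the peaks on either side of the start.

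Nr1d1 (chr11:98767932-98775333, minus strand) encodes REV-ERBα and overlaps the opposite-strand gene Thra by 1075 bp at its far end. Its promoter peak (chr11:98775221-98775480) had a strength of 7.83 and 6.42, or 7.12 ± 0.999 (SD, n = 2), the strongest of any member. A second site in intron 1 (chr11:98773781-98774220), centred 1332 bp after the start, was nearly as strong, at 6.93 and 5.60 (6.26 ± 0.938). An upstream site at −8118 bp (chr11:98783321-98783581) had 4.00 and 3.43.

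Nr1d2 (chr14:18204054-18239127, minus strand) encodes REV-ERBβ and had 2 narrow peaks in each library, the same 2 sites in both, with 16 footprints in each. The site at its start (chr14:18239021-18239380) had 4.93 and 3.68, and the site in intron 1 (chr14:18238361-18238740), centred 576 bp after the start, had 5.61 and 4.82 (5.22 ± 0.557). In this gene the intronic site was the stronger in both libraries. No narrow or broader peak lay elsewhere in its window.

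The intron 1 sites of both REV-ERB genes held 3 E-boxes (CACGTG, which reads the same on both strands) and 1 D-box. The D-box was searched as TTACGTAA or TTATGTAA on both strands, and on the gene strand both matches read TTACATAA. The stretches are shown on the minus strand, from the 5′ end of the gene onward, because no other shared site of the 10 genes held as many matches; capitals mark E-boxes and the D-box (chr11:98774060-98774179, then chr11:98773839-98773899, and chr14:18238505-18238698).
Nr1d1, start-side part: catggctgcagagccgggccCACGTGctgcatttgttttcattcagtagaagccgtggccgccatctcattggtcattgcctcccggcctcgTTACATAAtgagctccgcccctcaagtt
Nr1d1, far part: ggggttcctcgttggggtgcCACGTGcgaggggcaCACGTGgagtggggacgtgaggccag
Nr1d2: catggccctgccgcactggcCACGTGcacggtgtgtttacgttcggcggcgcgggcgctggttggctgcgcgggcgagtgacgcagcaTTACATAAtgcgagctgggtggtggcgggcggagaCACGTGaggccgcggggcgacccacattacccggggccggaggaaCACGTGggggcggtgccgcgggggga

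The order along the gene was the same at both, an E-box, the D-box, then a pair of E-boxes. The spacing from the first E-box to the D-box was 73 bp at Nr1d1 and 69 bp at Nr1d2. From the D-box to the next E-box it was 207 bp at Nr1d1 and 34 bp at Nr1d2, and between the last E-boxes 15 bp and 45 bp at the same genes. The D-box lay in a footprint in both libraries at both genes. At Nr1d1 the E-boxes at 1176 and 1456 bp lay in a footprint in both libraries and the one at 1471 bp in replicate 1 alone. At Nr1d2 the E-boxes at 451 and 599 bp did so in both libraries and the one at 554 bp in neither.

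An E-box together with a D-box was found in 18 of the 30953 stretches of narrow peak that the libraries shared across the genome (0.0582%), these sites among them. At least 3 E-boxes were found in 24 stretches (0.0775%). A motif match describes letters in the reference and does not show that a protein was bound.

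Nr1d1 also differed between the libraries away from its strong sites. It had 3 narrow peaks in replicate 1 and 6 in replicate 2, 3 and 17 broader peaks, and 21 and 52 footprints. The 3 narrow peaks found in replicate 2 alone had strengths of 1.03, 0.935 and 1.06, and lay at −7596 bp, in exon 6 and in exon 8. The window held 1461 bp listed in the FDR table in replicate 1 and 6047 bp in replicate 2, and the lowest FDR was 6.45e-17 and 1.85e-52, although the promoter peak was the stronger in replicate 1. Such a contrast, with at least 10 broader peaks in either library and counts differing at least 3-fold, was met by 0.579% of protein-coding genes, and of the 10 members by Nr1d1 alone. The part of 1 library in it was not tested.

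**Figure D3:**
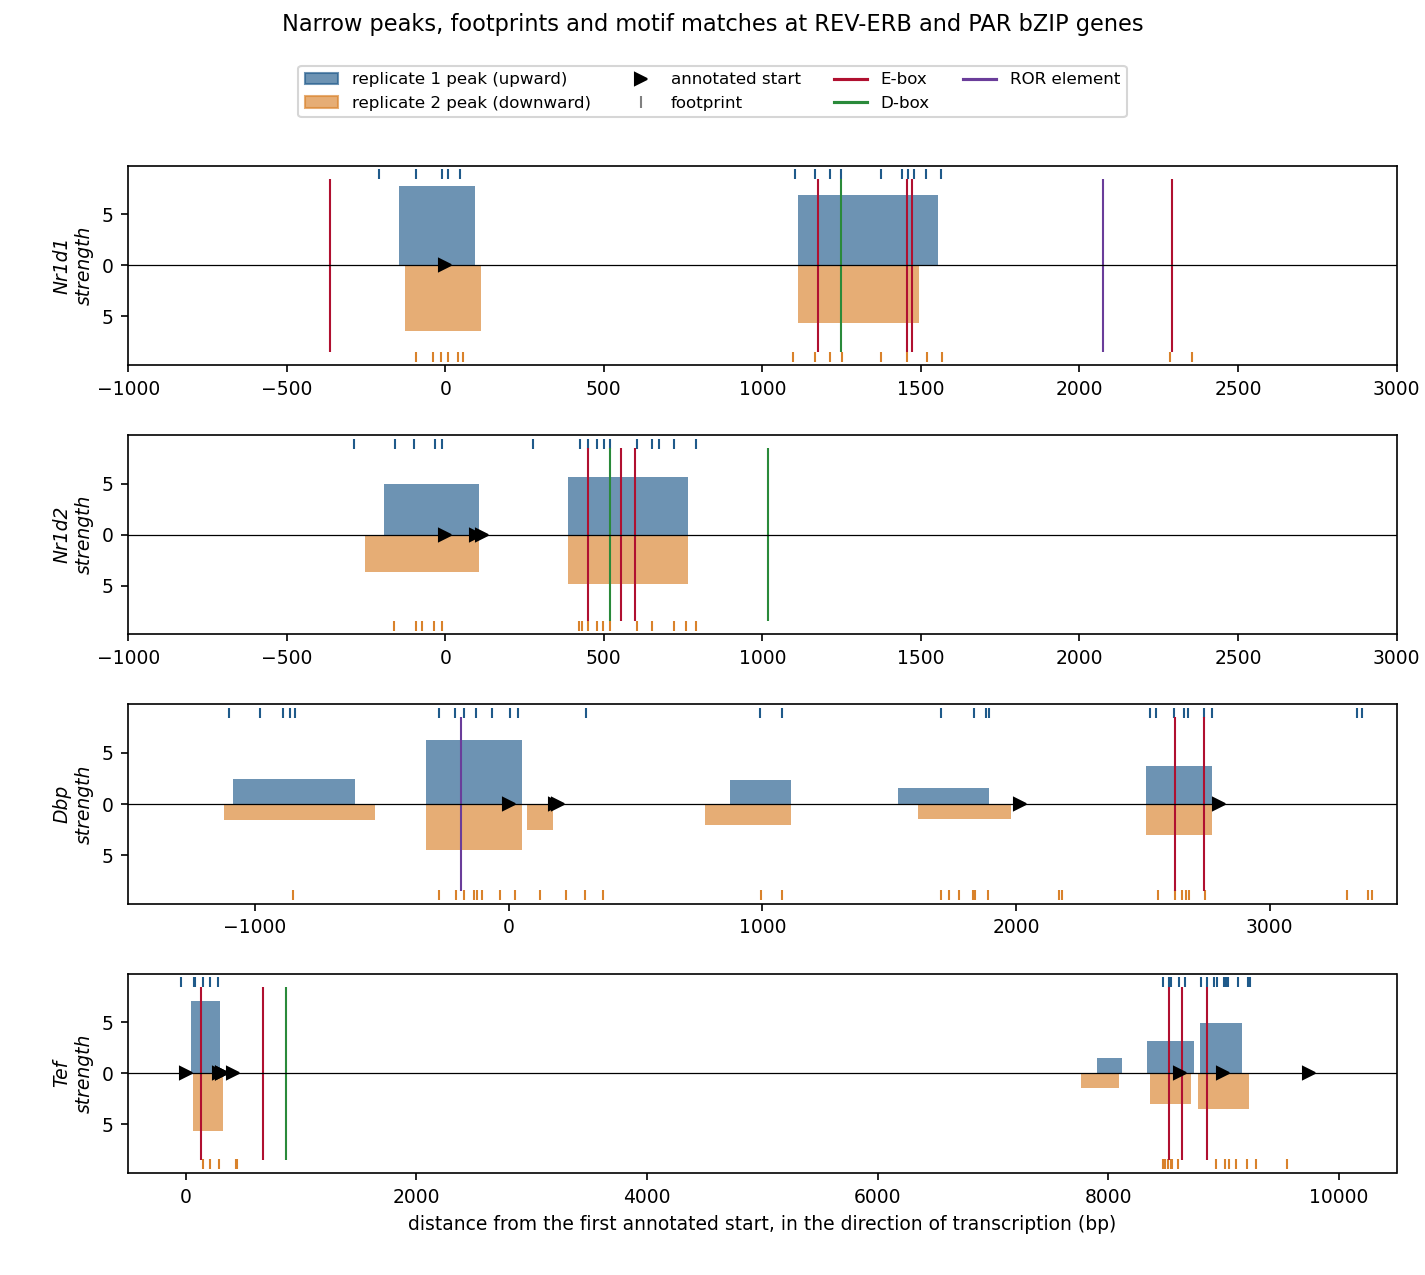
Narrow peaks, footprints and motif matches at Nr1d1, Nr1d2, Dbp and Tef, by distance from the first start in bp, with replicate 1 drawn upward and replicate 2 downward. At Nr1d1 and Nr1d2 the E-boxes and the D-box lie in the intron 1 site, and the sites with 2 E-boxes lie 2643 bp after the first start at Dbp and 8540 bp after it at Tef.

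Rora (chr9:68653786-69388246, plus strand), an activator at ROR elements, spans 734 kb and had 11 and 13 narrow peaks, 29 and 32 broader peaks, and 56 and 65 footprints. Its many sites were weak. At the first start the sites had 1.07 and 1.18 (chr9:68653141-68653642) and 1.02 and 1.04 (chr9:68653701-68654060). Of the shared sites inside the gene the strongest (chr9:69289661-69290040), at 1.66 and 1.27, lay at the start of the coding transcript Rora-202, whose start is 635896 bp into the gene. In replicate 2 a site in intron 5 (chr9:69368161-69368348), a narrow peak in that library alone, was stronger at 1.38. Of 16 sites in the window, 8 were shared. The site beyond its far end (chr9:69397801-69398400), of 1.24 and 1.36, lay at the start of the neighbour Ice2, and held the window's only shared E-box.

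Dbp (chr7:45705088-45710203, plus strand), a short gene whose far end overlaps Sphk2 on the opposite strand by 737 bp, had 11 narrow peaks in each library, 19 and 18 broader peaks, and 66 and 63 footprints. Of 13 sites in its window, 6 lay near its own starts and 6 near the starts of Car11, Rpl18 or Sphk2 alone. Its density therefore counts peaks that may belong to neighbours. Its promoter site (chr7:45704761-45705140) had 6.28 and 4.53 (5.41 ± 1.24). Within the gene, the intron 1 site (chr7:45705861-45706200) had 2.40 and 2.06, the exon 2 site (chr7:45706621-45707067) had 1.58 and 1.51, and the intron 2 site (chr7:45707601-45707860) had 3.75 and 3.07 (3.41 ± 0.480). The intron 2 site was the strongest of these 3, and it held 2 E-boxes.

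Tef (chr15:81802421-81826863, plus strand) had 6 narrow peaks in each library, and all 6 sites were shared. It had 6 and 7 broader peaks and 28 and 25 footprints. Its start site (chr15:81802461-81802740) had 7.09 and 5.67 (6.38 ± 1.01). Around a second group of starts, which serve the transcripts Tef-201 and Tef-206, sites of 3.14 and 3.06 (chr15:81810761-81811160) and of 4.89 and 3.53 (chr15:81811201-81811640) were found. Sites beyond the gene had 2.04 and 1.87, and 2.58 and 1.97.

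The stretches of Dbp (chr7:45707692-45707850) and Tef (chr15:81810923-81811079) that hold 2 E-boxes each are shown on the plus strand for comparison with the REV-ERB sites; capitals mark E-boxes and, at Dbp, an E′-box between them.
Dbp, intron 2: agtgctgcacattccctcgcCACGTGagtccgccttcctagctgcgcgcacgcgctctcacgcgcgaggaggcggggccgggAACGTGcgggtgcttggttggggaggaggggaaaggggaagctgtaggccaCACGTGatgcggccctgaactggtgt
Tef, second starts: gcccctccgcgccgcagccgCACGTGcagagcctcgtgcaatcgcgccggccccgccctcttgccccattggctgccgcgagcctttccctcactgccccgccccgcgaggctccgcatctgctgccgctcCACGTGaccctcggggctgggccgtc

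The E-boxes stood 113 bp apart at Dbp and 111 bp apart at Tef. Both Dbp E-boxes lay in a footprint in both libraries. Of the Tef pair, the E-box at 8525 bp did so in both libraries and the one at 8636 bp in neither. Tef had 2 more E-boxes under shared peaks, one at 128 bp in its strongest site, in no footprint, and one at 8858 bp, in a footprint in replicate 1 alone.

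The promoter site of Dbp held a ROR element 188 bp before the first start, in a footprint in both libraries (chr7:45704875-45704925, plus strand). The promoter site of Hlf held a CRE (TGACGTCA, the cAMP response element bound by CREB) 28 bp before the start, also in a footprint in both (chr11:90390899-90390946, minus strand). They are shown because each was the one such match under a shared promoter peak of its gene; capitals mark the match.
Dbp, promoter: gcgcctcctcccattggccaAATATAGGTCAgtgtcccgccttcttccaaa
Hlf, promoter: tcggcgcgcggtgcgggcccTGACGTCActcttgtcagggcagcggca

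On either strand, across the genome, a ROR element was found in 0.178% and a CRE in 1.85% of shared stretches. In the 32851 promoter windows of RefSeq (250 bases before to 50 after a start), the shares were 0.384% and 1.79% for these motifs, 7.15% for the E-box, 4.68% for the E′-box and 1.06% for the D-box. All 10 genes had such windows, 14 in all, with a GC content of 47% to 81.7% and a median of 63.0%, against 52.7% over all windows. In those windows an E-box was found at Tef alone.

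Hlf (chr11:90336536-90390895, minus strand) was the least open PAR bZIP gene. It had 2 narrow peaks in each library, 5 and 3 broader peaks, and 18 and 9 footprints. The start site (chr11:90390841-90391100) had 2.38 and 2.62, and a site in intron 2 (chr11:90369681-90369880), centred 21114 bp after the start, had 2.73 and 1.97. Its window held 13 E-boxes, none of them wholly inside a peak stretch shared by both libraries. An E-box at 21035 bp lay inside the intron 2 peak of replicate 1 and crossed the edge of that of replicate 2. A footprint overlapped it in replicate 2 alone.

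Nfil3 (chr13:52967209-52981073, minus strand), the D-box repressor gene, had 2 narrow peaks in replicate 1 and 7 in replicate 2, with 24 footprints in each. Its strongest site (chr13:52982881-52983080) was not at the start but at −1908 bp, with 2.86 and 3.50 (3.18 ± 0.451). A wide site over the start and intron 1 (chr13:52980161-52981120) had 1.80 and 2.04, with 13 and 16 footprints. Only the peak of replicate 1 covered the start. In replicate 2 the site was made of 2 narrow peaks that overlapped each other, beginning 273 and 373 bp after the start, and both are counted among the 7. The site held an E′-box and a D-box, neither in a footprint. The 4 sites found in replicate 2 alone had strengths of 0.861 to 1.01, and each overlapped a peak of the broader list in replicate 1. Joining narrow peaks within 200 bp of each other left 2 in replicate 1 and 4 in replicate 2.

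Across the 10 windows the reference held 219 E-boxes, of which 13 lay inside a peak stretch shared by the libraries. The windows of Clock, Arntl and Npas2 held 12, 14 and 31 E-boxes, and none touched a narrow peak in either library. Rora had 1 of 115 inside a shared stretch, Nr1d1 3 of 9, Nr1d2 3 of 5, Dbp 2 of 6, and Tef 4 of 8. Over all windows 16 touched a narrow peak in replicate 1 and 15 in replicate 2. One of these, at −8212 bp in the upstream site of Nr1d1, lay under the narrow peak of replicate 1 alone. It lay in a footprint in both libraries. Shared open E-boxes were thus found at both REV-ERB genes, Dbp and Tef, and at Rora by way of its neighbour. Narrow peaks covered only 703 to 1481 bp per library in the windows of Clock, Arntl and Npas2. The share over all E-boxes of the genome was not computed, so the lack of such E-boxes at these genes is not read as a difference. In replicate 1 footprints overlapped an E-box at 3124 bp in Arntl and one at 147114 bp in Npas2, outside narrow peaks.

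Counting only promoter peaks, 3 of the 10 genes (Nr1d2, Dbp and Tef) had an E-box under the part shared by the libraries, where 12% of the protein-coding genes with a promoter peak in both had one. The Dbp site counts through starts of non-coding transcripts, since it lies more than 1000 bp after the coding ones. Nr1d1 is not among the 3 because its E-box site lies beyond 1000 bp of a start. By the same count the E-box was present at 5 of 8 clock repressor genes (Per1, Cry1, Bhlhe40, Bhlhe41 and Ciart).

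Stretches with at least 2 E-boxes were 0.582% of all shared stretches, and 4 of the members' 41 shared sites held such a stretch, 1 each at Nr1d1, Nr1d2, Dbp and Tef. Longer stretches have more room for a match. The median length was 192 bp over all shared stretches, and among those of 250 to 400 bp the share was 1.27%.

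Of the 13 open E-boxes of the members, 7 lay in a footprint in both libraries (53.8%), 2 in 1 library and 4 in neither. Over all 2133 E-boxes in shared stretches, 23% lay in a footprint in both. In stretches of strength 3 or more in both libraries the share was 37.6% of 489, and all of the members' E-boxes except the one near Rora lay in such stretches. E-boxes of 1 site are not independent of each other, since they share its cutting.

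The libraries agreed on the members about as often as on other peaks. The 10 windows held 54 and 57 narrow peaks, of which 77.8% in replicate 1 and 73.7% in replicate 2 overlapped a narrow peak of the other library, against 76.5% and 78.4% of all narrow peaks. Taken as sites, 41 of 68 were shared. The count was 24 of 33 near the gene's own starts, 6 of 9 near another coding gene's start only, and 11 of 26 elsewhere. The same split over all sites of the genome is not given here, so it is not read as particular to these genes. The 27 sites of a single library were weak, with a median strength of 0.957 (0.616 to 2.54), and 26 of them were under 1.5. Shared sites had a median of 2.38 in replicate 1 and 1.97 in replicate 2. Of the 27, 15 overlapped a peak of the broader list in the other library.

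Strength at the 41 shared sites was slightly lower in replicate 2, with a median log2 ratio of replicate 2 to replicate 1 of -0.16 (-0.71 to 0.29). Over all 30953 shared stretches the median was -0.12, and over the 3927 with strength 3 or more in both it was -0.17. The sites at the ends of the range were the one at Rpl18 and Sphk2 in the Dbp window (4.71 and 2.88) and the upstream site of Nfil3 (2.86 and 3.50).

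**Figure D4:**
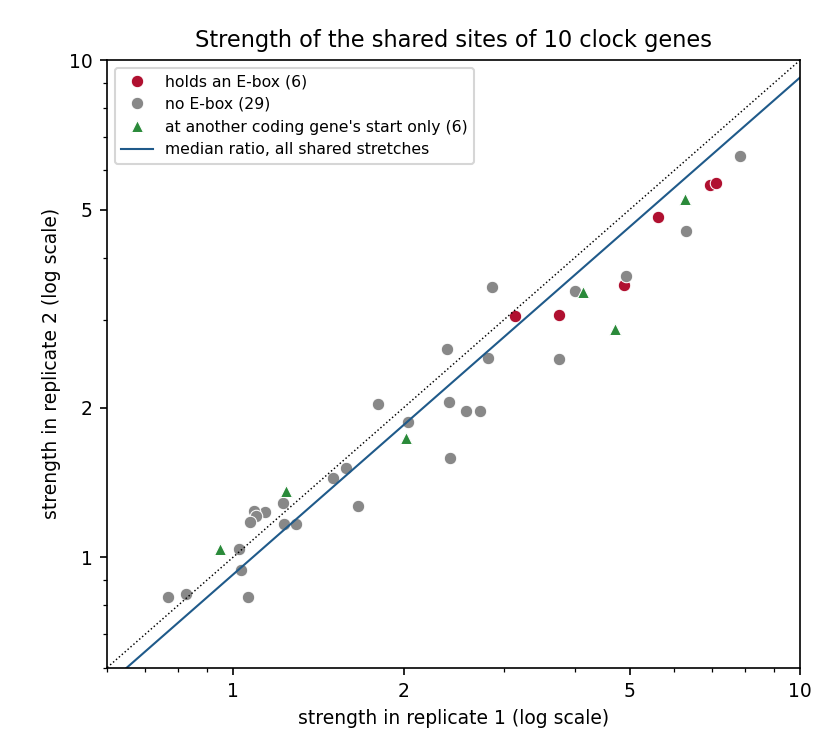
Strength of the 41 shared sites in replicate 2 against replicate 1, both on log axes, with the line of equal strength (dotted) and that of the median ratio over all shared stretches (solid). The 6 sites of the members that hold an E-box all lie at 3.06 or more in both libraries, and the site at Ice2 is drawn with the neighbours' sites.

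The other genes of the pathway give the scale. All 8 repressor genes (Per1, Per2, Per3, Cry1, Cry2, Bhlhe40, Bhlhe41 and Ciart) had a promoter peak in each library, against 54.9% of all protein-coding genes. The median promoter strength was 3.28 and 2.57 over the 10 members, against 4.88 and 3.80 over the repressor genes and 2.66 and 2.32 over all genes. The median density was 0.408 ± 0.0971 narrow peaks per 10 kb over the members and 1.16 ± 0.0399 over the repressor genes (SD, n = 2), which are shorter, with a median length of 22.6 kb. Per1, a period repressor gene, had 16 and 9 narrow peaks, and Bhlhe40, which encodes a repressor at E-boxes, had 6 and 8. Per3, the lowest in density, had 2 and 3.

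Promoter peaks in both libraries were found at 6 of 6 genes for kinases and ubiquitin ligase parts, 7 of 7 for co-regulators and 5 of 5 for clock-controlled outputs. Over all protein-coding genes the share was 54.9%. Rorb, a relative of Rora, had a promoter strength of 2.01 and 1.96. Btrc, whose product marks PER proteins for degradation, had a promoter strength of 8.61 and 6.67, above Nr1d1 in both libraries, with only 3 and 2 narrow peaks over its window. Fbxl21, whose product acts on CRY proteins, had 2.75 and 1.92.

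Hdac3, the deacetylase that works with REV-ERB proteins, had a promoter strength of 3.01 and 2.77. Sirt1, an NAD-dependent deacetylase, had 1.42 and 1.52, and Tbl1xr1, of the same corepressor complex as Hdac3, had 3.04 and 2.32. Usp2, a deubiquitinase gene under clock control, had 8.17 and 5.62, with 13 narrow peaks in replicate 1 and 6 in replicate 2. Noct, the nocturnin gene, had 2.95 and 2.81, and Nampt, for the rate-limiting enzyme of NAD salvage, had 4.10 and 3.39. An E-box under a shared promoter peak was found at 3 of 5 output genes, 2 of 7 co-regulators and 0 of 6 kinase and ligase genes.

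**Figure D5:**
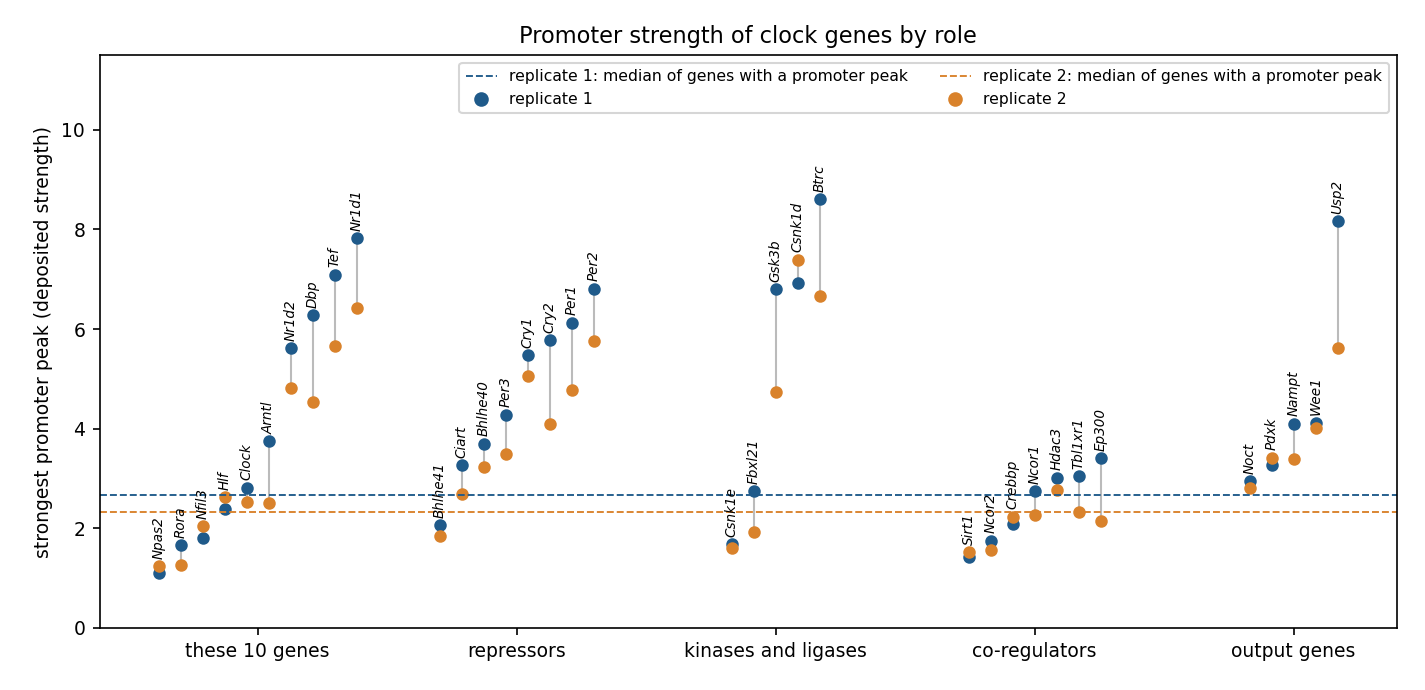
Strongest promoter strength of the 10 genes and of other genes of the pathway by role, 1 point per library, with dashed lines for the median over all genes with a promoter peak. The members run from 1.10 and 1.24 at Npas2 to 7.83 and 6.42 at Nr1d1, and Btrc lies above Nr1d1 at 8.61 and 6.67.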

How the data were processed

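DNase-seq of 2 libraries of 1 group was used. Per the notes deposited with the files, the authors called peaks in each library separately and derived footprints from alignments and an FDR table. No aligner or caller is named in the sources used here. Read totals were not used. The authors deposited a signal per peak (strength), unscaled here, and FDR values (q-values of cutting) listed only under 0.05. Footprints were used as intervals. Coordinates are mm10, counted from 1, with genes of GENCODE M21 on the GRCm38.p6 reference. Sequence is of the reference, promoter windows are of RefSeq, and alleles of the hybrid that differ from it were not separated.

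Windows were the gene and 10 kb on each side; peaks and footprints were placed by midpoint. Overlap meant at least 1 bp. Sites joined overlapping narrow peaks of both libraries; motifs were searched on both strands inside the stretches shared by both. Starts within 500 bp formed a cluster. The members and lists were chosen with earlier results of these data known. All members, and per other list the 2 genes of highest and the 1 of lowest density, were named, with at most 8 sequences printed; a few genes are not reported here. With 1 group no p-value was computed, and SDs are over 2 libraries. Interval functions were tested on simulated data. Python 3.11.15, numpy 2.4.6 and pandas 2.3.3 were used.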

Additional observations from a re-analysis of the deposited data

How the results depend on the processing

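The median narrow peak density of the members moved to 0.632 per 10 kb with the broader peak list. By library it was then 0.810 and 0.454 in replicates 1 and 2 (all genes 0.459 and 0.466). With 50 kb on each side it moved to 0.306, or 0.338 and 0.275 by library (all genes 0.287 and 0.278). In replicate 2 the members thus lay slightly below all genes under both settings. With either library left out the main density lay between 0.339 and 0.477. The share of their narrow peaks that the libraries shared, 75.7% as a mean of both directions, moved to 70.3% when 50% of the peak had to overlap, to 89.2% against the broader list of the other library, and to 94.6% for the strongest 50% of peaks. The median footprint density moved to 1.85 per 10 kb with 50 kb on each side and to 1.84 for footprints inside narrow peaks, and lay between 2.20 and 2.66 with either library left out. The count of members with an E-box under a shared promoter peak moved to 6 with the E′-box included and to 5 with any shared peak of the window. The share of all genes under these alternatives is not given here, so neither rise is read as a trait of the members. The count was 3 or 4 from the promoter peaks of 1 library, an alternative added after the data were seen, as was the variant ROR element. All 10 members kept a promoter peak in both libraries under each alternative but the strongest 50% of peaks, where 9 did (all but Npas2), and with either library left out the count was 10. Of the alternative values of single members, 36 moved by less than the spread between libraries and 23 by more. Where both libraries held the same count, any change counted as moved. Counts and strengths have no direction of their own. The comparison of density with all genes has one, and in replicate 2 it changed. There the members lay above all genes in the main setting, and below them with the broader list and with 50 kb on each side. No paired analysis was possible because there is 1 group and the results come from no test. Peak strength has no stated normalization and depth is unknown, so weak sites seen in 1 library cannot be told from sites missed in the other.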
